A study of Mus musculus with 4 samples.

Results

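The 10 genes described here are the feedback inhibitors of ERK signalling Spry1, Spry2, Spry4, Spred1 and Spred2 and the Ets transcription factors Etv4, Etv5, Ets1, Ets2 and Elk3. They were taken by gene symbol from the platform annotation, and every probe set of a symbol was included, which gave 21 of 22626 probe sets and 10 of 12393 genes. The list was put together with the differences between the cell lines in these same arrays known, so those differences are given as a description without a test.

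RNA came from CH10T1/2 cells, a mouse mesenchymal fibroblast line, stably transfected with the PTH and PTHrP receptor PTHR1. The first line carried the R150C variant found in enchondromas, which are benign cartilage tumours, and the other the wild type (WT) receptor. After a night without serum, R150C cells received 1e-07 M PTHrP for 1 h or carrier, and WT cells received PTHrP in the same way or served as control, for which the series text gives carrier and the sample labels do not name it. There was 1 Affymetrix mouse array per group and 4 arrays in all, so nothing separates the receptor from other differences between the transfected lines, and single differences have no replicate error.

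Sprouty proteins are made in response to receptor tyrosine kinase signalling and act back on it, inhibiting the path from Ras to ERK. Spred proteins are relatives that sit at the membrane and bring the Ras inactivator neurofibromin to Ras. Ets factors are DNA-binding proteins at the far end of the same path: Ets1, Ets2 and Elk3 are phosphorylated by ERK, and transcription of Etv4 and Etv5 is known to follow FGF and ERK activity. PTHR1 itself is a G protein coupled receptor that acts mainly through cAMP.

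The bases upstream of the transcription start are shown for 4 members. Spry2, Spred1 and Spred2 were the inhibitors with the widest gap between the lines, and Spry1 is a close relative with a narrow gap at low signal. Each run holds the 250 bases before the start, 5′ to 3′ on the gene's own strand, from RefSeq on GRCm38.p6, at chr14:105896820-105897069 (minus strand) for Spry2, chr2:117120821-117121070 (plus) for Spred1, chr11:19924192-19924441 (plus) for Spred2 and chr3:37639697-37639946 (plus) for Spry1. Capitals mark the Ets core GGAA on either strand.
Spry2: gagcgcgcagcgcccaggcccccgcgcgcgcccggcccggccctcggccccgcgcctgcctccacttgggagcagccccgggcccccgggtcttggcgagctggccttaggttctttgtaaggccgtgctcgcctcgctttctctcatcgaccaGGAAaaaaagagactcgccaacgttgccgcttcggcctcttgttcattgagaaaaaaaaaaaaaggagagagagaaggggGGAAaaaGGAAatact
Spred1: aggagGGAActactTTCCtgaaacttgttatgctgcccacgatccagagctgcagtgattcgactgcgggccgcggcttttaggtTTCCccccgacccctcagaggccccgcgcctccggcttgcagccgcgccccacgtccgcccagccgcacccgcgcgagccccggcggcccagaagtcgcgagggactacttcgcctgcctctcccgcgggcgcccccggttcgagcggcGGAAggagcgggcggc
Spred2: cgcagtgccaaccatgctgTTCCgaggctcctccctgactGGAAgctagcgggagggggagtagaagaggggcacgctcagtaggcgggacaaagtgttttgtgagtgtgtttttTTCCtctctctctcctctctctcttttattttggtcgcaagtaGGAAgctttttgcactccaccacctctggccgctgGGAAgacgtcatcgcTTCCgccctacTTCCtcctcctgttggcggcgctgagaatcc
Spry1: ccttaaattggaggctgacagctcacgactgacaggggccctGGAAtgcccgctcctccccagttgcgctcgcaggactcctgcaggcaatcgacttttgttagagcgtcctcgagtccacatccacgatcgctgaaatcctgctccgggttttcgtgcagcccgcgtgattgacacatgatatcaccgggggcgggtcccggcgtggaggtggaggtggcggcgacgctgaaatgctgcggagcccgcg

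The Ets core occurred 3 times before Spry2, 4 times before Spred1, 7 times before Spred2 and 1 time before Spry1, against a median of 3 and a share of 93.4% with at least 1 among all 32851 promoter entries. The longer form CGGAAG, which contains the core and was searched on both strands, lay at -17 in Spred1 and at -43 in Spred2, counted from the start, and was found in 13.6% of all entries. The cAMP response element core TGACG was found at -51 in Spred2, without overlapping an Ets core, and in 17.8% of all entries. None of the 4 held an AP-1 site (TGANTCA, 6.75% of entries), a full cAMP response element (TGACGTCA, 1.55%) or a CArG box (1.47%), the element at which Elk3 is known to bind beside SRF. At least 4 Ets cores were found in 33.4% of all entries. Sequences were matched for 7 of the 10 members, and a match is a description of letters, not of binding. Among the matched members not shown, Elk3 had 2 Ets cores, Ets2 had 1, and the Etv5 entries had 4 and 0. Whether the number of cores goes with the line difference was not tested.

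**Figure D1:**
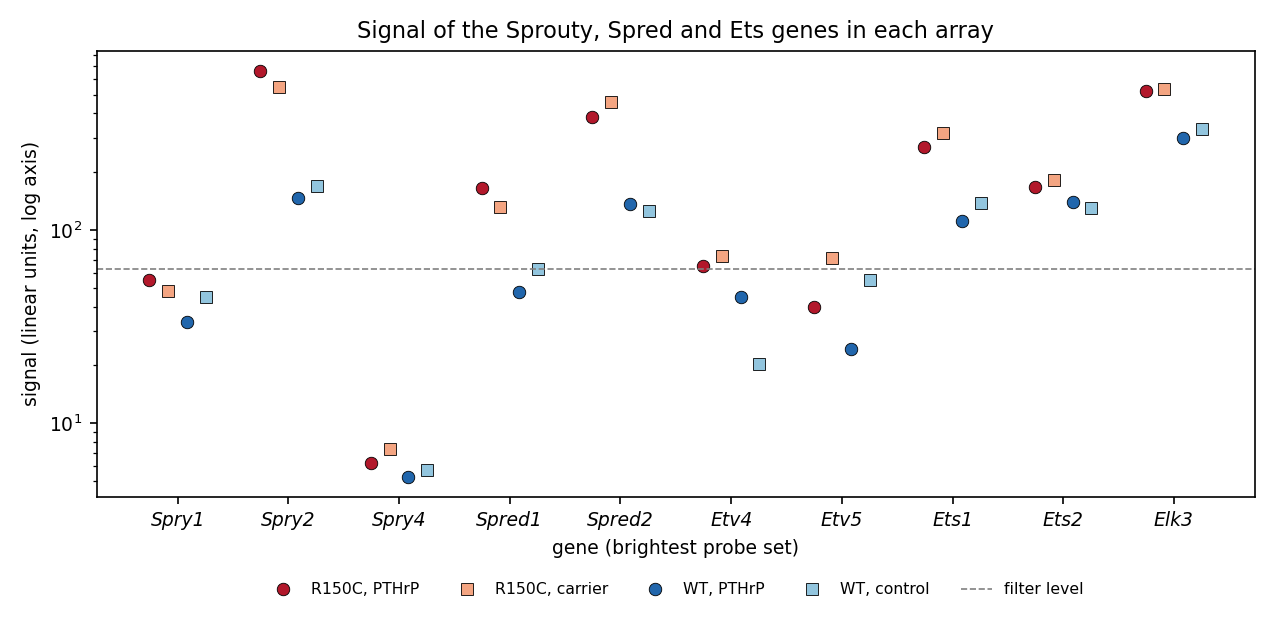
Signal of the brightest probe set of each gene in each of the 4 arrays (linear units on a log axis); circles are PTHrP, squares carrier or control, reds the R150C line and blues the WT line, and the dashed line is the filter level of 62.6. In 9 of the 10 genes, all but Etv5, both R150C arrays read above both WT arrays, beside 21.9% of all 12393 genes; the gap is narrow in Ets2 and Spry1, and Spry4 lies near the floor in all 4.

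Signal below means the deposited intensity of a probe set, on a linear scale with no unit. The brightest probe set stands for a gene, and differences were taken between values of log2(signal + 16). Folds and 2-fold counts rest on these differences, not on ratios of the printed signals, and adding 16 shrinks them most at low signal. Each array was first centred on the median of the 6197 genes whose mean lay at or above the median gene, a signal of 62.6. Of the 10 members 6 reached that level: Spry2, Spred1, Spred2, Ets1, Ets2 and Elk3. Spry1, Spry4, Etv4 and Etv5 did not. How far the line differences in the 2 media, which share no array, departed from each other gives the spread of a single difference, 0.25 over the kept genes and 0.38 over genes below the filter (SD, log2).

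Among the Sprouty genes, Spry2 differed most. Its brightest probe set, 1436584_at, read 662.9 with PTHrP and 546.3 with carrier in the R150C line, against 145.5 with PTHrP and 169.2 in control medium in the WT line. Both R150C arrays lay above both WT arrays. In bulk RNA, more cells expressing a gene and more RNA per cell cannot be told apart. The difference was 2.05 under PTHrP and 1.57 in control medium, or 4.14-fold and 2.97-fold, and over both media it ranked 29 from the top of the 6197 kept genes. Its other probe set, 1421656_at, was dim, at 25.9 and 23.0 in the R150C line (PTHrP, carrier) against 28.3 and 14.8 in the WT line (PTHrP, control), and overlapped between the lines.

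Spry1, which acts in kidney and other organs as a brake on growth factor receptors, read 54.9 with PTHrP and 48.3 with carrier in the R150C line, against 33.5 with PTHrP and 45.2 in control medium in the WT line. The R150C values were the higher ones, but the difference of 0.50 under PTHrP and 0.04 in control medium was of the size of the spread among dim genes. Spry4, a further inhibitor of Ras activation, read 6.2, 7.4, 5.3 and 5.7 in the order R150C PTHrP, R150C carrier, WT PTHrP and WT control with its brighter probe set, and its other one lay between 1.0 and 4.3. Each of these lay in the lowest 16.6% of the probe sets of its array, so Spry4 could not be followed in these cells with this array.

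Both Spred genes were higher in the R150C line. Spred2 (1434403_at) read 382.0 with PTHrP and 457.9 with carrier in the R150C line, against 136.0 with PTHrP and 125.0 in control medium in the WT line, without overlap. That is a difference of 1.37 under PTHrP and 1.72 in control medium, or 2.58-fold and 3.29-fold, and rank 45 over both media. The second Spred2 probe set, 1423001_at, went the other way at signals near the floor, 4.3 and 8.0 in the R150C line (PTHrP, carrier) against 24.0 and 10.7 in the WT line (PTHrP, control).

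Spred1, mutated in humans in a neurofibromatosis-like syndrome, was covered by 3 probe sets. The brightest, 1423161_s_at, read 165.2 with PTHrP and 131.6 with carrier in the R150C line, against 47.9 with PTHrP and 63.1 in control medium in the WT line. The second, 1423160_at, read 156.8 with PTHrP and 99.9 with carrier in the R150C line, against 25.0 with PTHrP and 38.7 in control medium in the WT line. In both the R150C arrays lay above the WT arrays, and the gap was wider under PTHrP (1.48 and 2.05) than in control medium (0.87 and 1.05), a contrast between media that was not tested. On the log2(signal + 16) scale the control value of the brightest probe set lies just under 2-fold, while the ratio of its signals is 2.09. The third, 1423162_s_at, stayed between 8.2 and 16.4 in all arrays.

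Among the Ets factors that ERK phosphorylates, Ets1 showed the widest gap. Its brightest probe set (1452163_at) read 268.0 with PTHrP and 318.2 with carrier in the R150C line, against 111.2 with PTHrP and 137.2 in control medium in the WT line. The difference was 1.14 under PTHrP and 1.09 in control medium, or 2.20-fold and 2.13-fold. A second probe set, 1426725_s_at, read 189.7 and 146.7 in the R150C line (PTHrP, carrier) against 95.4 and 94.4 in the WT line (PTHrP, control), again without overlap, for differences of 0.86 and 0.53. The other Ets1 probe sets, 1422027_a_at and 1422028_a_at, lay below the filter at 33.4 to 64.1 and overlapped between the lines.

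Elk3, also called Net, is a partner of SRF that represses its targets until ERK phosphorylates it. Its probe set 1448797_at read 520.9 with PTHrP and 536.5 with carrier in the R150C line, against 299.9 with PTHrP and 332.9 in control medium in the WT line. The difference was 0.74 under PTHrP and 0.63 in control medium, short of 2-fold but wider than the spread of a single difference. The other probe sets of Elk3, 1435143_at and 1417662_at, differed by 0.80 and 0.63 under PTHrP and by 1.04 and 0.51 in control medium, so Elk3 was the gene whose 3 probe sets all lay above the filter and all separated the lines. Ets2, the closest relative of Ets1, read 166.5 with PTHrP and 181.7 with carrier in the R150C line, against 140.1 with PTHrP and 130.4 in control medium in the WT line. Its differences, 0.20 and 0.40, were the smallest among the kept members.

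The Pea3-type factors Etv4 and Etv5 were dim. Etv4 (1423232_at) read 65.2 with PTHrP and 73.3 with carrier in the R150C line, against 45.2 with PTHrP and 20.2 in control medium in the WT line. The lines did not overlap, but the difference was 1.27 in control medium and 0.39 under PTHrP, and the first rests on the single low WT control value. Etv5 (1450082_s_at) read 40.1 with PTHrP and 71.9 with carrier in the R150C line, against 24.2 with PTHrP and 55.0 in control medium in the WT line, so both PTHrP values lay below both values without PTHrP and the lines overlapped, with line differences of 0.46 and 0.28.

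**Figure D2:**
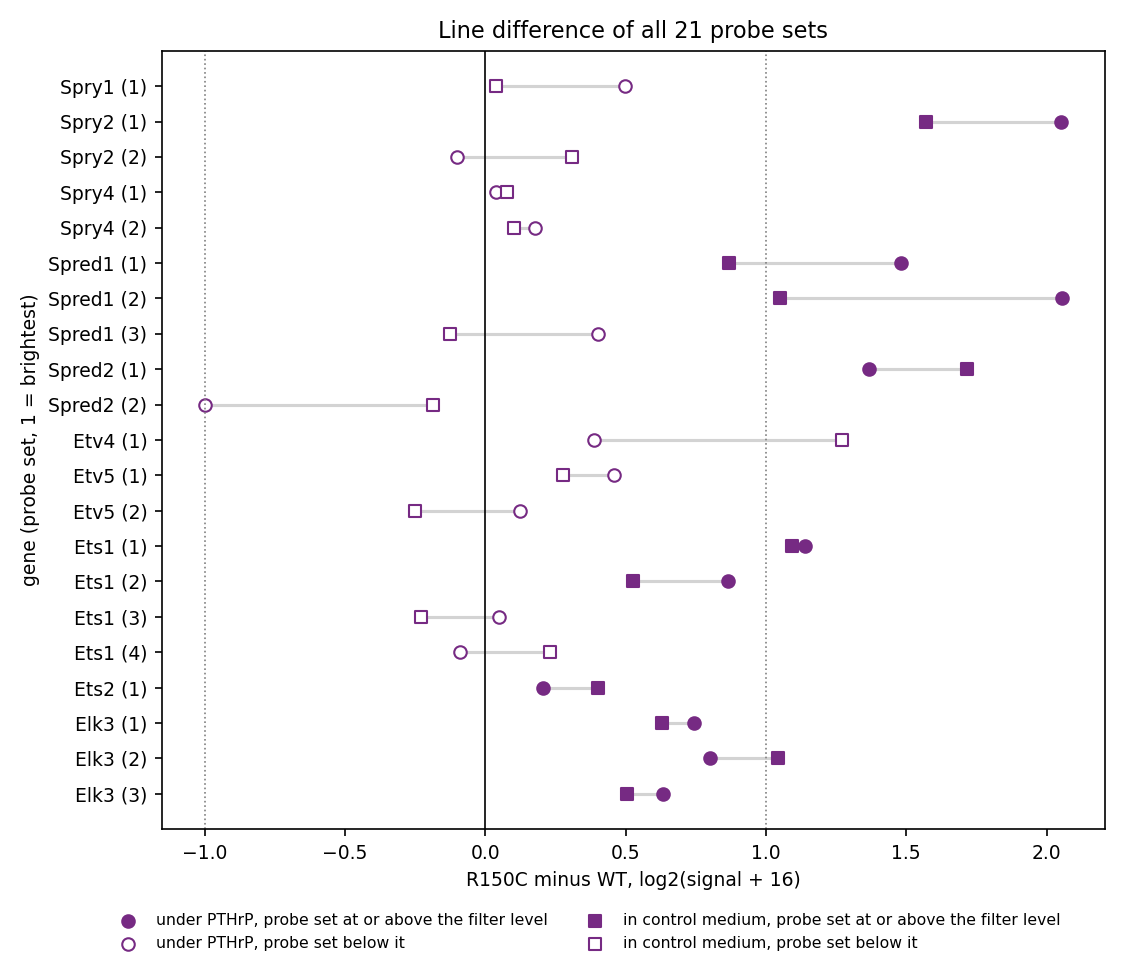
R150C minus WT on the log2(signal + 16) scale for each of the 21 probe sets, numbered from the brightest within a gene; circles are the difference under PTHrP, squares that in control medium, filled where the probe set lies at or above the filter level, with dotted lines at 2-fold. All 10 filled probe sets lie right of 0 in both media, while of the 11 open ones 5 do. High R150C readings help a probe set to reach the filter level, so nothing is read from this contrast.

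Counted together, 3 of the 6 kept members (Spry2, Spred2 and Ets1) exceeded 2-fold in favour of the R150C line in both media, as did 1.44% of all kept genes, and none was 2-fold lower, as were 0.387%. Without the filter the count was 3 of 10, against 0.839% of all genes. All 6 kept members were higher by some amount in both media, as were 27.9% of kept genes. Since the members were picked on this contrast, nothing is read from these shares. The median difference of the 6 was 1.25 under PTHrP and 0.98 in control medium, and that of all 10 was 0.62 and 0.75, beside medians of -0.07 and -0.04 over all kept genes.

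By probe set, 10 of the 21 reached the filter level and all 10 were higher in the R150C line in both media, beside 26.8% of all probe sets at that level. Of these, 4 passed 2-fold in both media, beside 1.32%. Of the 11 dimmer probe sets 5 were higher in both media, beside 22.1% of all probe sets below that level, 1 was lower in both, beside 32.3%, and 5 changed sign. The level was applied to the mean over all 4 arrays, so high R150C readings help a probe set to reach it. Spred1 1423160_at (25.0 with PTHrP, 38.7 in control medium) and Elk3 1417662_at (39.6 and 59.8) reached it with both WT readings below it. Nothing is therefore read from how the brighter and dimmer probe sets compare, or from these shares. When all probe sets of a gene were averaged, the line difference over both media shrank in 4 of the 6 kept members, to 0.997 in place of 1.81 in Spry2, 0.515 in place of 1.54 in Spred2, 0.995 in place of 1.18 in Spred1 and 0.49 in place of 1.12 in Ets1. It was 0.77 in place of 0.69 in Elk3 and 0.34 in place of 0.30 in Ets2, which has 1 probe set and moved through the centring alone. No member was then 2-fold higher in both media.

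**Figure D3:**
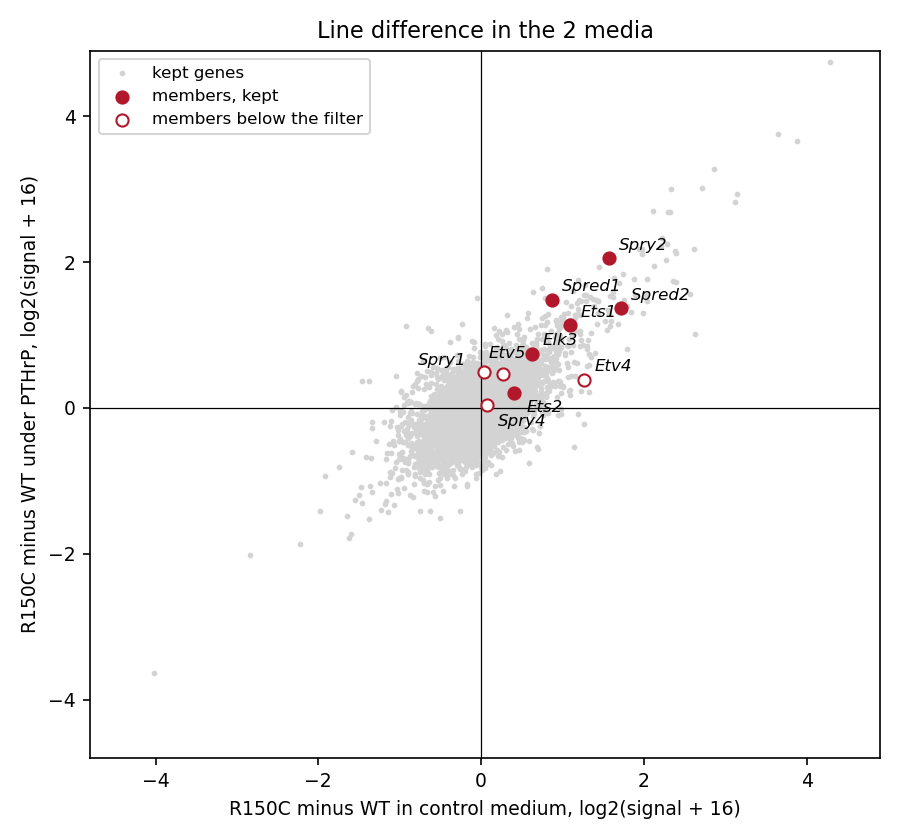
R150C minus WT under PTHrP (vertical) against the same difference in control medium (horizontal), both on the log2(signal + 16) scale, for the 6197 kept genes in grey and the 10 members in red (open where below the filter). Spry2, Spred2, Ets1 and Spred1 lie toward the upper right edge, Elk3 and Ets2 nearer the centre.

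The genes whose profile over the 4 arrays lay nearest to that of Spry2, by Euclidean distance of log2 values centred on each gene's own mean, were the chemokine gene Ccl2 (distance 0.20), Fam110c (0.21) and the long noncoding RNA gene Neat1 (0.33). Nearest to Ets2, the kept member with the smallest line difference, were the small Maf factor gene Mafg, the histone demethylase gene Kdm5b and the actin-binding caldesmon gene Cald1, each at a distance of 0.04.

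PTHrP for 1 h moved none of the 10 members by 2-fold in either line on the scale used here. On that scale 1.1% of all 12393 genes passed 2-fold in the R150C line and 1.48% in the WT line. For the dim Etv5 and Etv4 the statement depends on the constant added to the signal. With a pseudocount of 1, their differences in the WT line were -1.17 and 1.10, beyond 2-fold. In the R150C line they were then -0.84 and -0.18, short of 2-fold. Spry2 differed by 0.26 in the R150C line and -0.22 in the WT line, Spred1 by 0.29 and -0.33, and Spred2 by -0.26 and 0.09, each near the spread of a single difference. Ets1 was lower with PTHrP in both lines, at -0.24 in the R150C line and -0.29 in the WT line. Ets2 and Elk3 stayed within -0.16 and 0.07. The sign was opposite in the lines in 4 of the 6 kept members (Spry2, Spred1, Spred2 and Ets2), beside 48.9% of kept genes. Centring each array on all probe sets would add 0.06 to every such value in the R150C line and 0.19 in the WT line, which turns both Elk3 values and the WT value of Spry4 to the other sign. limma's additive fit over the kept genes called no gene for an effect of PTHrP common to both lines (345 of them had p under 0.05 before adjustment). Among the 6 kept members the lowest adjusted p of that limma fit was 0.915, that of Ets1 (log2 difference -0.27, SE 0.15).

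Etv5 had the widest PTHrP difference of the members, and both its probe sets read lower with PTHrP in both lines. The brighter read 40.1 with PTHrP against 71.9 with carrier in the R150C line, and 24.2 with PTHrP against 55.0 in control medium in the WT line, differences of -0.66 and -0.84. The other, 1420998_at, read 36.7 against 43.1 and 31.7 against 52.7 in the same order, differences of -0.17 and -0.55. Etv5 lay below the filter; with all 12393 genes in limma's fit its adjusted p was 0.902, so the difference did not pass. Etv4 differed by -0.15 in the R150C line and 0.74 in the WT line, and the WT value again rests on the control reading of 20.2. The ratio of 3′ to 5′ signal of the Gapdh control probe sets, a sign of RNA quality, also moved with treatment: it was 1.21 with PTHrP and 0.991 with carrier in the R150C line, and 1.17 with PTHrP and 0.845 in control medium in the WT line. Its part in these differences was not tested.

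**Figure D4:**
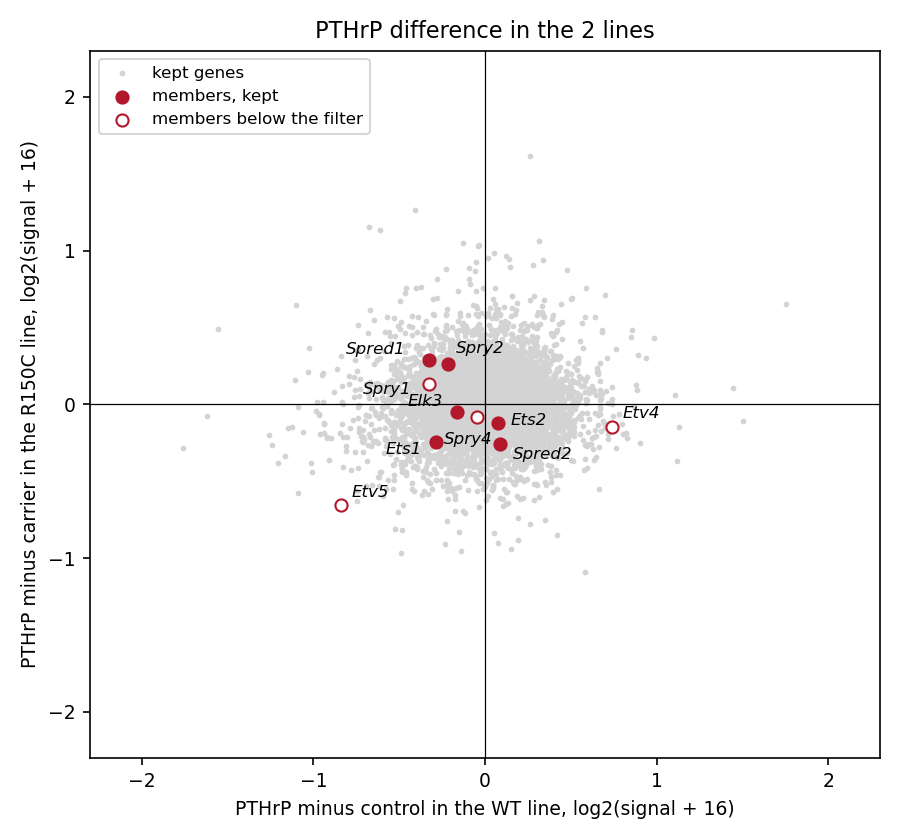
PTHrP minus carrier in the R150C line (vertical) against PTHrP minus control in the WT line (horizontal), on the log2(signal + 16) scale, for the 6197 kept genes in grey and the 10 members in red (open where below the filter). The 6 kept members lie within the central cloud, and Etv5, below the filter, lies low in both lines.

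The surrounding pathway was described with 6 lists of genes, 94 of them measured and 62 kept, each read beside the 1.44% of kept genes 2-fold higher and the 0.387% 2-fold lower in both media. Of 16 kept genes of the cascade from adaptors and Ras to ERK, none was 2-fold apart in both media, and the median difference over both media was 0.04. The docking protein gene Gab1 came nearest, at 63.5 and 48.2 in the R150C line (PTHrP, carrier) against 137.8 and 111.5 in the WT line (PTHrP, control), or -0.97 and -1.02. With 1 added to the signal in place of 16, 1 gene of this list was 2-fold lower in both media. Mknk2, a kinase that ERK activates, differed by -0.67 under PTHrP and -0.69 in control medium, while the MEK gene Map2k1 differed by 0.14 and 0.34.

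Among 11 other kept inhibitors of Ras and ERK, the EGF receptor inhibitor gene Errfi1 and the ERK phosphatase gene Dusp6 were 2-fold higher in both media and none was lower, with a list median of 0.23. Dusp6 read 747.9 and 696.3 in the R150C line (PTHrP, carrier) against 76.9 and 90.1 in the WT line (PTHrP, control). The Ras GTPase activating protein gene Rasa1 (1.12 under PTHrP and 0.95 in control medium) and Erf, an Ets repressor inactivated by ERK (0.77 and 1.11), lay near 2-fold. Of the 7 other kept Ets factors none passed, with a median of 0.11. Elk4, a further SRF partner, had the largest difference, 0.89 under PTHrP and 0.63 in control medium.

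Of 8 kept receptor tyrosine kinases none was 2-fold apart in both media and the median was 0.04, with Pdgfra at -0.59 under PTHrP and -0.50 in control medium, Egfr at -0.46 and -0.10, and Fgfr1 at 0.31 and 0.38. Of 14 other kept transcripts listed as induced by ERK, 10 were 2-fold higher and 2, Egr1 and Fos, 2-fold lower, with a median of 1.65. The 14 include Bcl2l11, which is known to be held down by ERK, at 0.19 under PTHrP and -0.31 in control medium. Phlda1 (2.13 and 2.40), Epha2 (2.19 and 1.95) and Plaur (2.02 and 2.28) were among the higher ones. Several of this list were known from earlier results of these arrays, and high R150C readings help a gene to be kept. Lif, for example, read 194.3 and 225.2 in the R150C line (PTHrP, carrier) against 29.9 and 22.4 in the WT line (PTHrP, control). Nothing is therefore read from the count or the median of the ERK-induced list. Of 6 kept Ets target genes and SRF partners, Srf itself was 2-fold higher, at 529.8 and 555.7 in the R150C line (PTHrP, carrier) against 171.6 and 165.4 in the WT line (PTHrP, control). The median of that list was 0.36. The remaining family members Spry3 and Spred3 were looked for as a further list, matched none of the 12393 genes and have no values here.

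**Figure D5:**
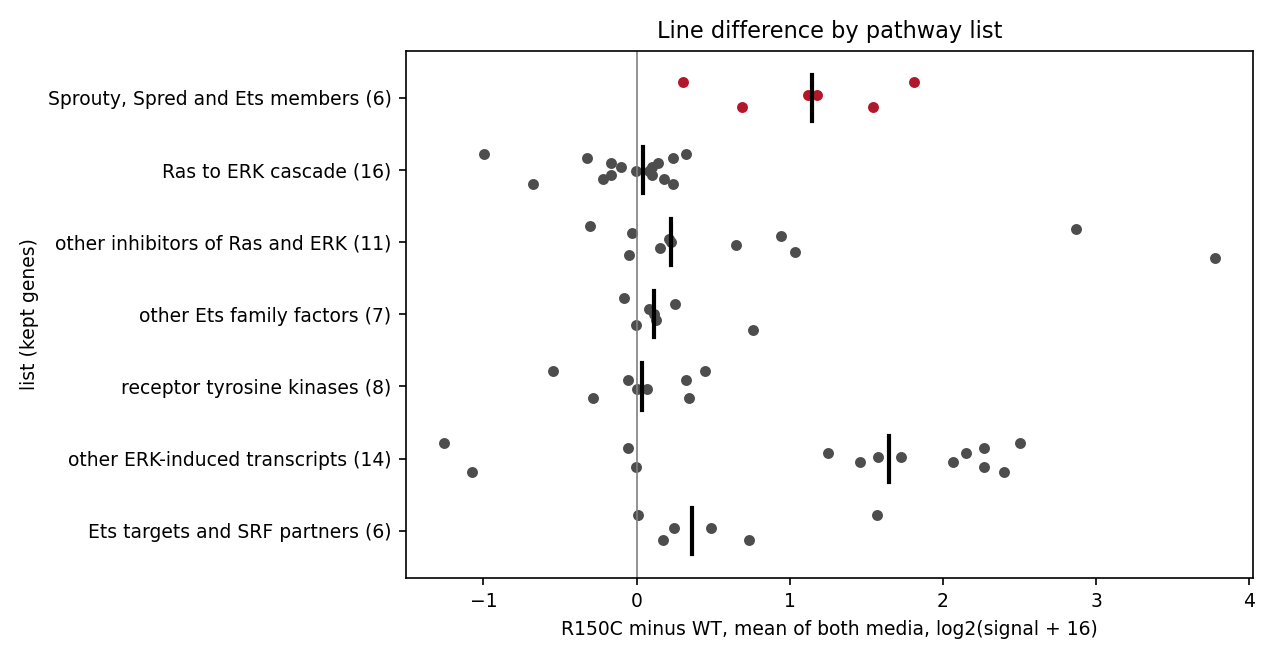
R150C minus WT, mean of both media on the log2(signal + 16) scale, for each kept gene of the members (red) and of 6 pathway lists (grey), with a bar at each list's median and the number of kept genes in brackets. The cascade, receptor and other Ets lists centre near 0, and the list of ERK-induced transcripts, which includes Bcl2l11, at 1.65. Several genes of the ERK-induced list were known from earlier results of these arrays.

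The cells were checked against their label. All 8 fibroblast markers were kept, with summed signal of 25971.7 and 29254.3 in the R150C line (PTHrP, carrier) and 33169.4 and 30097.6 in the WT line (PTHrP, control). None of the 4 endothelial or 4 muscle markers, 1 of 5 macrophage markers (Csf1r) and 1 of 4 epithelial markers (Krt8) reached the filter, and 2 of 4 chondrocyte markers (Col2a1 and Sox9) did. Col2a1 was bright, at 1153.9 and 1481.0 in the R150C line (PTHrP, carrier) and 1384.9 and 1105.9 in the WT line (PTHrP, control). In every array it read above the fibroblast markers Thy1, Pdgfrb and Postn. The Pth1r probe set lay between 3.2 and 3.9 in the 4 arrays, too dim to be followed, and whether it reads the transfected cDNA was not tested.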

How the data were processed

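RNA of 4 CH10T1/2 cultures, 1 per group, was hybridised to Affymetrix mouse arrays. The deposited values are intensities on a linear scale, and the submitters' processing notes name Affymetrix Expression Console as the authors' tool. How it summarised probes was not given in the sources used here. Arrays have no read depth, and their number sets the precision. Of 22690 probe sets 64 controls were left out; 20380 of the rest had 1 gene symbol, 691 several and 1555 none.

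Values were turned to log2(signal + 16), and the brightest probe set stood for each of 12393 genes. Each array was centred on the median of the 6197 kept genes, because centring on all probe sets is known to leave them shifted. Line and PTHrP differences were counted at 2-fold, with no test. The PTHrP effect common to both lines was tested with limma 3.58.1 (R 4.3.3; additive model of receptor and treatment, 1 residual degree of freedom, Benjamini-Hochberg at 0.05), after a check on simulated data. Its p-values reflect only how these arrays scatter. Tables and figures were made with Python 3.11.15. Named genes were all members and up to 6 kept genes per list by size of the mean line difference. The 3 genes nearest in profile to the members with the largest and the smallest difference were also named. Egr1, Fos, Bcl2l11 and the markers were named after their values were seen. Members and lists were chosen with earlier results of these data known. The 8 alternative settings cover centring, normalization, pseudocount, probe set choice and filter.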

Additional observations from a re-analysis of the deposited data

Results flagged for a closer look

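In 4 of the 6 kept members the PTHrP difference had opposite signs in the lines, 1 array pair each, as in 48.9% of all kept genes, and whether the responses differ was not tested. The response in the R150C line minus that in the WT line was 0.615 in Spred1 (0.29 against -0.33), 0.48 in Spry2 (0.26 against -0.22), -0.35 in Spred2 (-0.26 against 0.09) and -0.20 in Ets2 (-0.12 against 0.07), on the log2(signal + 16) scale, where this quantity had an SD of 0.35 over all kept genes. The second bright probe set of Spred1 also had opposite signs, 0.57 in the R150C line and -0.44 in the WT line. When all probe sets of a gene were averaged, the WT value of Spry2 turned to 0.21 and its difference of responses to -0.02.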

How the results depend on the processing

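The median line difference of the 6 kept members, 1.15 over both media, was 0.85 with a pseudocount of 64 and 0.64 when all probe sets of a gene were averaged, and lay between these and 1.29 in the other settings. The 3 members 2-fold higher in both media became 0 with the mean of all probe sets, 4 with quantile normalization or a pseudocount of 1, and 2 with a pseudocount of 64 or the filter at the 75th percentile, where 3 members were left. Averaging brings in the dim probe sets listed in the text. For Ets1 it also brings in 1426725_s_at, which lay above the filter and differed by 0.86 under PTHrP and 0.53 in control medium. A larger pseudocount shrinks differences by construction. With a pseudocount of 1, the PTHrP differences of Etv5 (-1.17) and Etv4 (1.10) in the WT line passed 2-fold. limma's count of genes with a PTHrP effect common to both lines, 0 in the report, was 25 (22 higher and 3 lower with PTHrP) when arrays were centred on all probe sets and 1 without centring, and 0 in the other settings; in none was a member called. That centring moved line differences by 0.12 in control medium and -0.01 under PTHrP. No sign of a line difference of Spry2, Spred2 or Ets1 over both media changed in these settings. The limma fit already sets PTHrP against carrier or control within each line. No further block could be fitted and no array left out, because each group has 1 array. Spry4, Spry1, Etv4 and Etv5 are limited by their low signal.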
